A study of Mus musculus with 11 samples.

Results

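Luminal progenitor (LP) cells and mature luminal (ML) cells sorted from the virgin mouse mammary gland were compared using RNA-seq. The comparison rests on 6 of the 11 libraries of the series, 3 of LP and 3 of ML cells, chosen by their labels. The remaining libraries were 3 of MaSC/basal cells, used here only to give a level, and 1 each of mammosphere cells and the Comma Dβ line, which were not used for the comparison. All 6 luminal libraries came from wild type FVB/N virgin females given as 8 weeks old, and no treatment, transgene or deletion is named for any of them. LP cells were sorted as CD24+CD29loCD61+ and ML cells as CD24+CD29loCD61-, and both are labelled as enriched populations, so that each gate may hold cells of the other kind. Replicates 1, 2 and 3 of each population belong to library batches 1, 2 and 3, and per the labels batch 1 was prepared with an earlier TruSeq RNA kit than batches 2 and 3. The study describes its samples as independent, but how many mice went into each is not given in the sources used here. With library batch in the model, the p-values measure the spread of the LP to ML difference over these 3 batches.

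The luminal layer of mammary ducts holds cells at different stages. Luminal progenitors form colonies in culture, express the transcription factor *Elf5* and are the forerunners of the alveolar cells that make milk under prolactin, which signals through its receptor and STAT5. Mature ductal cells include the hormone-sensing cells, which carry the oestrogen and progesterone receptors and respond to these hormones by secreting ligands such as amphiregulin, WNT4 and RANKL that act on their neighbours.

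Between 19958838 and 60517657 reads were counted on genes in the LP libraries and between 21311068 and 75795034 in the ML libraries. Before TMM scaling, 14343 of 27179 genes exceeded 0.5 CPM (counts scaled to library size) in at least 3 of the 6 libraries. The edgeR quasi-likelihood test was applied to these, and library batch was a term of the model. On the TMM scale, 0.5 CPM was 9.76 reads in LP replicate 3, the shallowest library, and in the deepest library, ML replicate 2, it was 40.3 reads. ML replicate 2 stood apart from the other ML libraries. Over the 1525 genes called higher in LP cells without it (log2 fold change over 1), it lay above both other ML libraries for 1180 genes (77.4%), at a median of 22.1% of the way from their mean to the LP mean. Over the 1373 genes called higher in ML cells without it, it lay below both other ML libraries for 1022 genes (74.4%), at a median of 37.1% of the way. A library left out of the call can lie towards LP by this choice of genes alone, and ML replicate 1 was not measured in this way. ML replicate 3 was lower still for LP genes, with 138 of 859 genes (16.1%) above both other ML libraries, but it held most of the level of 3 keratins described further on. The results below were therefore also computed without ML replicate 2, which leaves the same-batch pairs of batches 1 and 3. With library batch in the model, a library without its partner adds no estimate of the LP to ML difference. Leaving out either library of a batch therefore drops the same pair, and a change cannot be credited to 1 of them. For the CD61 gene *Itgb3* the log2 fold change was 4.91 without LP replicate 2 and 4.94 without ML replicate 2.

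The transcripts of the sort markers followed the gates, which is a check of the sort and not a finding. *Itgb3*, which encodes CD61 (chromosome 11, 104608000 to 104670476), had 232, 268 and 143 CPM in LP replicates 1 to 3 and 8.26, 31.8 and 4.21 CPM in ML replicates 1 to 3. The 2 groups did not overlap, and ML replicate 2 was the highest ML library. *Itgb1*, which encodes CD29 and was gated low in both populations, ranged from 519 to 597 CPM in LP and from 506 to 569 CPM in ML libraries, with a log2 fold change (LP over ML) of 0.05 (SE 0.09, adjusted p = 0.687). *Cd24a* had 503, 582 and 800.3 CPM in LP and 1452, 1103 and 1344 CPM in ML libraries, lower in every LP library, with a log2 fold change of -1.07 (SE 0.19 and adjusted p = 0.00962), although both gates took CD24+ cells. Below, a value in brackets after a gene is its log2 fold change, LP over ML, and is negative where the gene was higher in ML cells.

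Markers outside the gates also followed the labels. *Spp1*, which encodes the secreted phosphoprotein osteopontin (chromosome 5, 104435111 to 104441053), had 9166, 13022 and 6256 CPM in LP and 289, 768 and 153 CPM in ML libraries, without overlap, a log2 fold change of 4.81 (SE 0.33 and adjusted p = 0.00380). *Kit*, the stem cell factor receptor, had 679, 448 and 635 CPM in LP and 156, 278 and 138 CPM in ML libraries. Its log2 fold change of 1.68 (SE 0.33, adjusted p = 0.0137) became 2.16 without ML replicate 2. The call was lost without the batch 3 pair, by ML replicate 3 (1.40, adjusted p = 0.0791) or LP replicate 3 (1.38, adjusted p = 0.0820). It was also lost without LP replicate 1 (1.41, adjusted p = 0.0538), but not without ML replicate 1 (1.44, adjusted p = 0.0451). *Esr1*, the oestrogen receptor, had 33.9, 53.5 and 64.0 CPM in LP and 185, 143 and 189 CPM in ML libraries. Every ML library was above every LP library, with a log2 fold change of -1.81 (SE 0.22 and adjusted p = 0.00486).

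Of 6 LP markers (*Itgb3* among them), 5 were higher in LP cells, against 23.8% of all tested genes higher in LP cells at adjusted p under 0.05. Of 7 ML markers (*Cd24a* among them), 7 were higher in ML cells, against 24.3% of all tested genes. The markers were chosen as genes of LP or ML cells, with earlier results of these data known. Their counts are therefore a check of the labels and not a finding. The LP markers included *Elf5* (2.15) and the lipopolysaccharide co-receptor *Cd14* (1.89), and the ML markers included the progesterone receptor *Pgr* (-2.51), the pioneer factor *Foxa1* (-1.77), the prolactin receptor *Prlr* (-2.23), the surface protein *Ly6a* (Sca-1, -2.19) and *Prom1* (CD133, -2.79). The exception was *Aldh1a3*, a retinaldehyde dehydrogenase, with 228, 127 and 158 CPM in LP and 113, 204 and 75.7 CPM in ML libraries. ML replicate 2 lay above 2 of the 3 LP libraries. Its log2 fold change of 0.47 (adjusted p = 0.34) was 1.04 (adjusted p = 6.08e-04) without ML replicate 2, where the call was lost if library batch was left out of the model as well (adjusted p = 0.0611). Over the fits that leave out 1 library it ran from 0.14 to 1.04, and without ML replicate 3 it was 0.16 (adjusted p = 0.809). In bulk RNA, fewer cells of a type and less RNA per cell cannot be told apart.

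**Figure D1:**
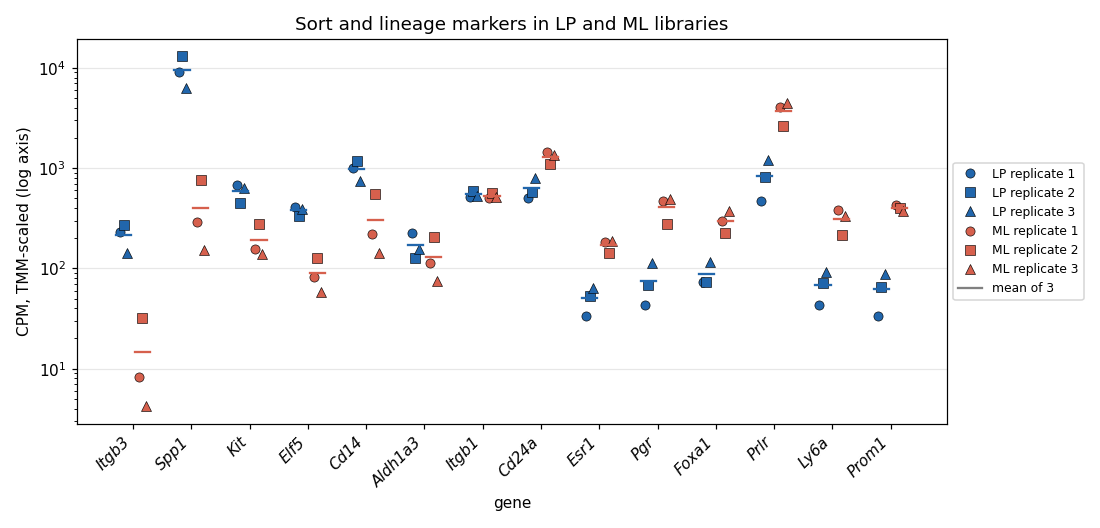
TMM-scaled CPM (log axis) of the sort markers and of LP and ML marker genes in each of the 6 libraries, with circles, squares and triangles for replicates 1, 2 and 3 and a bar for the mean of 3 libraries. LP and ML libraries are separate for 12 of the 14 genes, *Aldh1a3* and *Itgb1* overlap, and ML replicate 2 is the highest ML library for each of the 6 LP markers.

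Across all genes, LP and ML cells differed widely. At adjusted p under 0.05, 6898 genes (48.1%) were called, 3417 higher in LP and 3481 higher in ML cells, and with a log2 fold change over 1 as well, 1362 genes (9.50%) were higher in LP and 1233 (8.60%) in ML cells. These shares are the background against which the lists below are read. Without ML replicate 2 they were 22.8% and 22.0% at any fold and 10.6% and 9.57% past 1. The LP and ML libraries did not overlap for 49.9% of all tested genes, LP being higher for 23.4% and ML for 26.5%, so that a lack of overlap is itself common. The genes called past 1 kept their direction without ML replicate 2 in all 1362 and all 1233 cases, and 1270 (93.2%) and 1188 (96.4%) of them stayed under 0.05. Without ML replicate 3, 849 (62.3%) and 862 (69.9%) did so. With library size alone in place of TMM, the median log2 fold change of all genes moved from 0.01 to -0.20 and the split of calls from 3417 and 3481 to 2237 and 5233, so that small differences depend on the scaling.

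The 10 largest differences towards LP cells were led by *Lao1*, an L-amino acid oxidase (chromosome 4, 118961967 to 118968910), which had 113, 327 and 89.2 CPM in LP and 1.43, 19.7 and 0.552 CPM in ML libraries and a log2 fold change of 5.45 (SE 0.63 and adjusted p = 0.00459). The caseins *Csn1s2a* and *Csn2*, *Spp1* and *Itgb3* were also among them, with *Dppa1* (5.12), the synaptic adhesion gene *Slitrk4* (4.82), the peptide hormone *Cck* (4.35), the lipocalin *Apod* (4.34) and the protein kinase A inhibitor *Pkib* (4.14). *Apod* had the smallest SE of these 10 (0.13), with 227, 325 and 119 CPM in LP and 9.64, 19.0 and 5.65 CPM in ML libraries. For all 10, ML replicate 2 lay above ML replicate 1. Genes were picked for this group only where the LP and ML libraries did not overlap, so that their separation follows from the choice.

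Of the 10 largest differences towards ML cells, the first 3 took most of their level from ML replicate 3. *Krt71*, a keratin of the hair follicle, had 0.700, 0.857 and 24.0 CPM in ML replicates 1 to 3 and at most 0.256 CPM in LP libraries. *Krt1*, a keratin of the upper epidermis, had 1.64, 1.37 and 48.9 CPM, and *Krt25*, also of the hair follicle, had 0.700, 0.857 and 21.5 CPM. Their log2 fold changes of -4.76, -4.34 and -4.26 were -3.14, -2.74 and -3.02 without ML replicate 3 (adjusted p = 0.0741, 0.0361 and 0.0375). *Krt77*, an epidermal keratin, reached 8.67, 1.91 and 23.0 CPM and kept -3.31 without that library.

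The other 6 were each larger in size without ML replicate 3 than with it. *Fxyd2*, the gamma subunit of the sodium pump, had 2.10, 1.35 and 8.40 CPM in LP and 48.8, 25.9 and 74.4 CPM in ML libraries (log2 fold change -3.94, SE 0.30, adjusted p = 0.00380). *Bmp3*, a secreted BMP family member (-3.27, SE 0.17), had 29.2, 29.5 and 39.3 CPM in ML and at most 5.33 CPM in LP libraries. The orphan nuclear receptor *Esrrb* (-3.26), the diamine oxidase *Aoc1* (-3.44), the neurexin *Nrxn2* (-3.31) and *Cdcp3* (-3.29) completed the group. These genes were also picked for a lack of overlap between the LP and ML libraries, so that their separation is not a result.

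**Figure D2:**
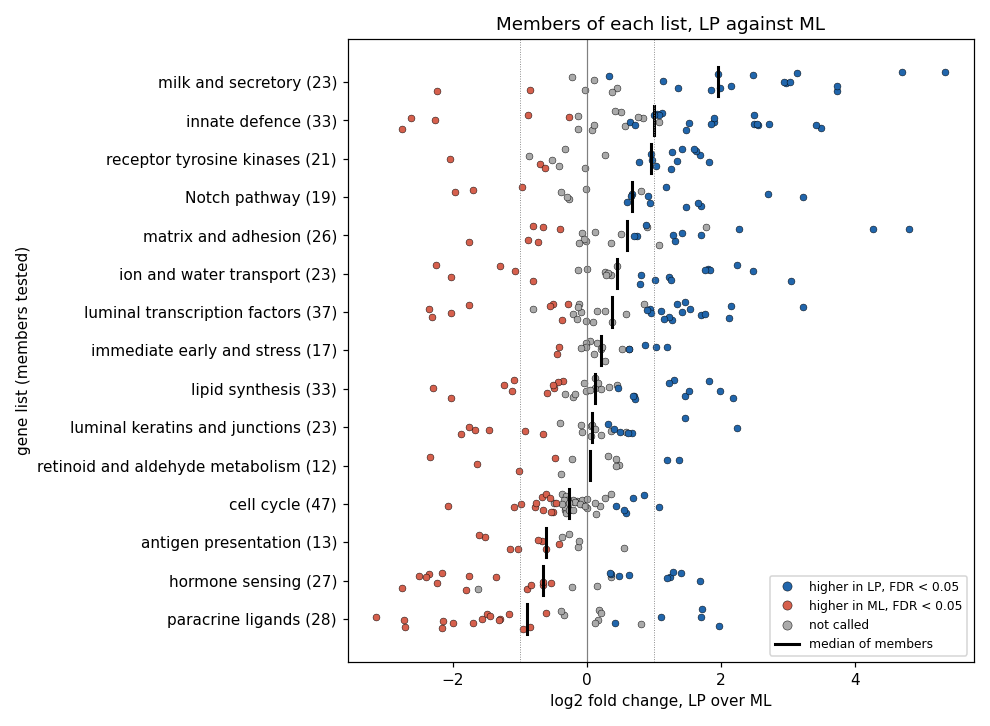
Log2 fold change (LP over ML) of every tested member of 15 gene lists, with the number tested in brackets, blue for higher in LP, red for higher in ML and grey for members not called, and a bar at each list's median. The medians run from -0.90 for paracrine ligands to 1.95 for milk and secretory genes, against 0.01 for all genes tested, and dotted lines mark a log2 fold change of 1 in each direction.

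Milk genes showed the largest list median, in glands of virgin mice. Of 23 tested members of the milk and secretory list, 16 were higher in LP cells, 15 of them past a log2 fold change of 1, and 2 were higher in ML cells, with a median of 1.95 against 0.01 for all genes. The background was 23.8% for LP-higher calls, 9.50% for those past 1 and 24.3% for ML-higher calls. Of 5 caseins, 4 were tested and all 4 were higher in LP cells. The calcium-sensitive casein genes *Csn1s1*, *Csn2* and *Csn1s2a* lie within 1 stretch of chromosome 5, and their promoters are printed because these genes moved together. The sequences are RefSeq's, on GRCm38.p6, each running from 250 bases before to 50 bases after the annotated start and read along the gene's own strand. Capitals mark matches on either strand to TTCNNNGAA, the palindrome that STAT factors can bind.
Csn1s1 (plus strand, chr5:87665958-87666257): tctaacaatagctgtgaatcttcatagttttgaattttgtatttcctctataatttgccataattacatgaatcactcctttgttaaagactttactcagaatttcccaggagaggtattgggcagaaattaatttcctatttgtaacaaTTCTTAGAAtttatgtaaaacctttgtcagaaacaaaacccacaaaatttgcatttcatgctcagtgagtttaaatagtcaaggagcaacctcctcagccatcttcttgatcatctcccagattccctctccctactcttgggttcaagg
Csn2 (minus strand, chr5:87699376-87699675): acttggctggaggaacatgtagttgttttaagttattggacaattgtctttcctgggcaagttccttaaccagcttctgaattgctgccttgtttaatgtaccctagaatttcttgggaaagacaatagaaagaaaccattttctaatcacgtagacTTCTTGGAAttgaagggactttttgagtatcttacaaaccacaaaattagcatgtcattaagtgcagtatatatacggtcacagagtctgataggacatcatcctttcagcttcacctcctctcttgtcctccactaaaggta
Csn1s2a (plus strand, chr5:87774200-87774499): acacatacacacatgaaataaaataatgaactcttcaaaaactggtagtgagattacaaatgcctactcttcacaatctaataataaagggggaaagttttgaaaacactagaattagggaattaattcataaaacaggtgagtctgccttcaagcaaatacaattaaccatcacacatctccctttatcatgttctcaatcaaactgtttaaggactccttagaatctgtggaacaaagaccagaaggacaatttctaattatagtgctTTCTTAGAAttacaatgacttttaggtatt
The match began 100 bases before the start of *Csn1s1*, 93 bases before that of *Csn2* and 20 bases after that of *Csn1s2a*. A match was held by 8.3% of all 32851 promoters available, and among the promoters of genes higher in LP cells past a log2 fold change of 1 the share was 5.55%, against 7.03% for all tested genes. The match is a description of the sequence and not a binding site measured here.

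*Csn1s1* had 2427, 5578 and 1654 CPM in LP and 160.4, 1126 and 53.7 CPM in ML libraries. *Csn2*, beta-casein, had 1644, 4978 and 1106 CPM in LP and 58.3, 565 and 15.0 CPM in ML libraries. *Csn1s2a* had 1107, 5308 and 826 CPM in LP and 27.8, 263 and 9.26 CPM in ML libraries. For these 3 genes replicate 2 was the highest library of both populations, and the LP and ML values did not overlap. The log2 fold changes were 3.73 (SE 0.56), 4.70 (SE 0.66) and 5.34 (SE 0.48), with adjusted p of 0.00692, 0.00608 and 0.00380. Without library batch in the model, *Csn1s1* (adjusted p = 0.0811) and *Csn2* (adjusted p = 0.0712) were no longer under 0.05. *Csn3*, kappa-casein, stayed under 0.05 in that fit (0.00849), with 6011, 7581 and 5252 CPM in LP and 654, 1659 and 461 CPM in ML libraries (2.97, SE 0.31, adjusted p = 0.00429).

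Among whey proteins, *Lalba*, the lactose synthase subunit alpha-lactalbumin, had 1237, 1379 and 918 CPM in LP and 73.9, 252 and 37.0 CPM in ML libraries, and its log2 fold change was 3.72 (SE 0.47, adjusted p = 0.00515). *Trf*, transferrin, was the most abundant transcript by count in each LP library, with 31022, 32136 and 16871 CPM, and had 2711, 6480.4 and 1422 CPM in ML libraries (3.14). *Wap*, whey acidic protein, was low, with 4.48, 12.2 and 4.46 CPM in LP and 0.673, 1.83 and 0.340 CPM in ML libraries (2.95, SE 0.24). *Ltf*, lactoferrin, differed from these. It had 1638, 1389.5 and 991 CPM in LP and 1483, 1795 and 682 CPM in ML libraries, which overlapped (log2 fold change 0.10, adjusted p = 0.693). Per length of transcript, in RPKM, the LP means were 3933 for *Csn3*, 1607 for *Lalba* and 11439 for *Trf*, against 579, 165 and 1517 in ML cells.

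Of 7 genes of the milk fat globule, 6 were higher in LP cells, each past a log2 fold change of 1. Butyrophilin *Btn1a1* had a log2 fold change of 3.03 (SE 0.35 and adjusted p = 0.00451), xanthine oxidoreductase *Xdh* of 2.48, lactadherin *Mfge8* of 1.98, the lipid droplet coat protein *Plin2* of 1.95, the mucin *Muc1* of 1.85 and *Cidea* of 1.36. The fatty acid transporter *Cd36* had 3.73, 12.4 and 13.2 CPM in LP and 3.12, 13.4 and 22.3 CPM in ML libraries (adjusted p = 0.417). The regulators of the list were divided. *Elf5* was higher in LP cells, whereas *Stat5a* (124, 117 and 115 CPM in LP and 249, 197 and 198 CPM in ML libraries, log2 fold change -0.85, adjusted p = 0.00441) and *Prlr* were higher in ML cells. *Stat5b* had a log2 fold change of -0.04 (adjusted p = 0.752). Without ML replicate 2 the counts of the list were again 16 and 2, with a median of 2.27.

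**Figure D3:**
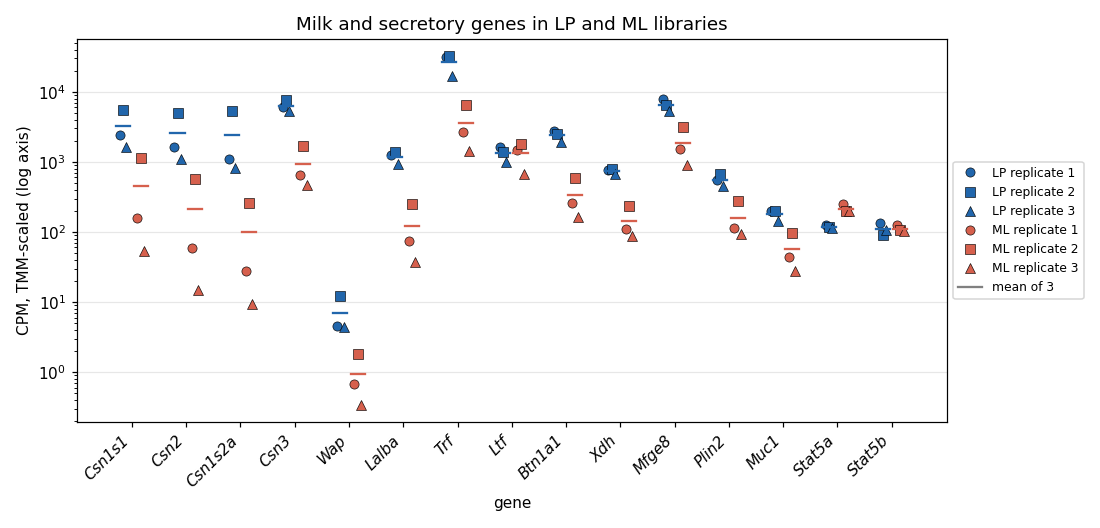
TMM-scaled CPM (log axis) of 15 milk and secretory genes and their regulators in each library, with circles, squares and triangles for replicates 1, 2 and 3 and a bar for the mean of 3 libraries. Milk genes other than *Ltf* separate LP from ML libraries by log2 fold changes of 1.85 to 5.34, *Ltf* and *Stat5b* overlap, *Stat5a* is higher in ML libraries, and *Csn1s1*, *Csn2* and *Csn1s2a* are highest in replicate 2 of each population.

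Hormone receptors were divided between the populations. Of 27 tested members of the hormone-sensing list, 14 were higher in ML and 9 in LP cells, with a median of -0.65. The backgrounds were 24.3% and 23.8%. Past a log2 fold change of 1 the counts were 9 and 5, against backgrounds of 8.60% and 9.50%. The oestrogen, progesterone and prolactin receptors were higher in ML cells. *Pgr* had 43.3, 68.3 and 113 CPM in LP and 465, 280.0 and 490.2 CPM in ML libraries (-2.51, SE 0.31, adjusted p = 0.00500). *Prlr* had 468, 811 and 1204 CPM in LP and 4034, 2660.2 and 4492 CPM in ML libraries (-2.23, SE 0.32, adjusted p = 0.00630).

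Of the receptors for other hormones, 3 past a log2 fold change of 1 were higher in LP cells. The glucocorticoid receptor *Nr3c1* had 117, 105 and 114 CPM in LP and 45.7, 57.0 and 40.9 CPM in ML libraries (1.24, SE 0.14, adjusted p = 0.00441). The vitamin D receptor *Vdr* had 243, 537 and 193 CPM in LP and 98.6, 210.4 and 85.2 CPM in ML libraries. It was higher in the LP library of each batch, but ML replicate 2 exceeded LP replicate 3. Its call (1.28, SE 0.09, adjusted p = 0.00380) was lost without library batch (adjusted p = 0.0735). The thyroid hormone receptor *Thrb* (1.20) was higher in LP cells, and *Thra* had -0.22 (adjusted p = 0.0744).

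Regulators and targets of the steroid receptors followed the same division in part. *Tbx3*, a T-box factor of hormone-sensing cells, had 18.4, 20.4 and 33.7 CPM in LP and 153, 87.9 and 128 CPM in ML libraries (-2.35, SE 0.24, adjusted p = 0.00425). The co-activator *Cited1* (-2.41), the ETS factor *Spdef* (-1.35) and *Foxa1* were higher in ML cells. *Gata3*, a luminal regulator, had 199, 171 and 167 CPM in LP and 165, 134 and 186 CPM in ML libraries, which overlapped (0.16, adjusted p = 0.338). Among targets, the stanniocalcin *Stc2* had a log2 fold change of -2.76 (SE 0.31), whereas its relative *Stc1* had 1.68 (SE 0.18). *Fkbp5*, a target of both glucocorticoid and progesterone receptors, was higher in LP cells (1.40, adjusted p = 0.00755). *Tff1* had no read in the 6 libraries, and *Greb1* was at most 2.99 CPM and not called (adjusted p = 0.125).

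Ligands and receptor tyrosine kinases had list medians of opposite sign. Of 28 tested paracrine ligands, 16 were higher in ML cells, 13 of them past a log2 fold change of 1, and 5 were higher in LP cells, with a median of -0.90. Of 21 tested receptor tyrosine kinases, 12 were higher in LP cells, 9 of them past 1, and 3 were higher in ML cells, with a median of 0.96. Over all tested genes 23.8% were higher in LP and 24.3% in ML cells, and past 1 the shares were 9.50% and 8.60%. At any fold, the 5 ligands higher in LP and the 3 receptors higher in ML cells are below these shares. For ligands without library batch in the model, 9 were higher in ML cells. Without ML replicate 3, 10 ligands were higher in ML and 2 in LP cells, and 5 receptors were higher in LP and 3 in ML cells.

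Of the EGF family, *Areg*, amphiregulin (chromosome 5, 91139599 to 91148432), had 150.2, 339 and 429 CPM in LP and 1496, 1202 and 1123 CPM in ML libraries, without overlap (-2.16, SE 0.40, adjusted p = 0.0113). Betacellulin *Btc* (-0.85) was also higher in ML cells. Heparin-binding *Hbegf* was higher in LP cells, with 526, 307 and 408 CPM in LP and 213, 209.5 and 151 CPM in ML libraries (1.10, SE 0.19, adjusted p = 0.00995), as was *Nrg1*, at most 5.32 CPM (1.97).

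The ERBB receptors for these ligands were split. *Egfr* had 102, 97.9 and 104 CPM in LP and 31.3, 42.9 and 26.1 CPM in ML libraries (1.62, SE 0.17, adjusted p = 0.00426), and *Erbb4* was also higher in LP cells (1.35). *Erbb2* (-0.70, adjusted p = 0.00441) and *Erbb3* (-0.62, adjusted p = 0.00854) were higher in ML cells, both by less than a log2 fold change of 1. The ligand *Fgf1* was higher in ML cells, with 2.92, 5.28 and 9.89 CPM in LP and 18.7, 16.8 and 32.7 CPM in ML libraries (adjusted p = 0.00454), as was *Fgfr2*, with 139, 229 and 319.5 CPM in LP and 954, 658 and 1155 CPM in ML libraries (-2.05, SE 0.26, adjusted p = 0.00519), the only receptor of the list past 1 in that direction. *Fgfr1* was higher in LP cells (0.77). The hepatocyte growth factor receptor *Met* had 548, 479.8 and 427 CPM in LP and 154, 239 and 110.4 CPM in ML libraries (1.60, SE 0.21, adjusted p = 0.00536), and *Igf1r* had 1.42 (adjusted p = 0.0117). The insulin receptor *Insr* was between 103 and 116 CPM in all 6 libraries (-0.03, adjusted p = 0.794).

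The WNT ligands of this list were higher in ML cells for each of the 3 tested, and other WNT genes are not reported here. *Wnt4* (chromosome 4, 137277635 to 137299501) had 15.4, 40.7 and 47.8 CPM in LP and 201, 219.7 and 201 CPM in ML libraries (-2.72, SE 0.34, adjusted p = 0.00500). *Wnt5a* (-2.14) and *Wnt7b* (-1.56) were the others. *Tnfsf11*, which encodes RANKL, had 0, 0.862 and 3.07 CPM in LP and 0.727, 6.12 and 14.8 CPM in ML libraries. It was higher in the ML library of every batch, but ML replicate 1 lay below 2 of the LP libraries. Its log2 fold change of -2.74 (SE 0.41, adjusted p = 0.00689) gave an adjusted p of 0.177 without library batch. *Calca*, which encodes calcitonin, had at most 0.564 CPM in LP and 5.14, 1.23 and 3.02 CPM in ML libraries (-3.15, SE 0.65, adjusted p = 0.0153).

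**Figure D4:**
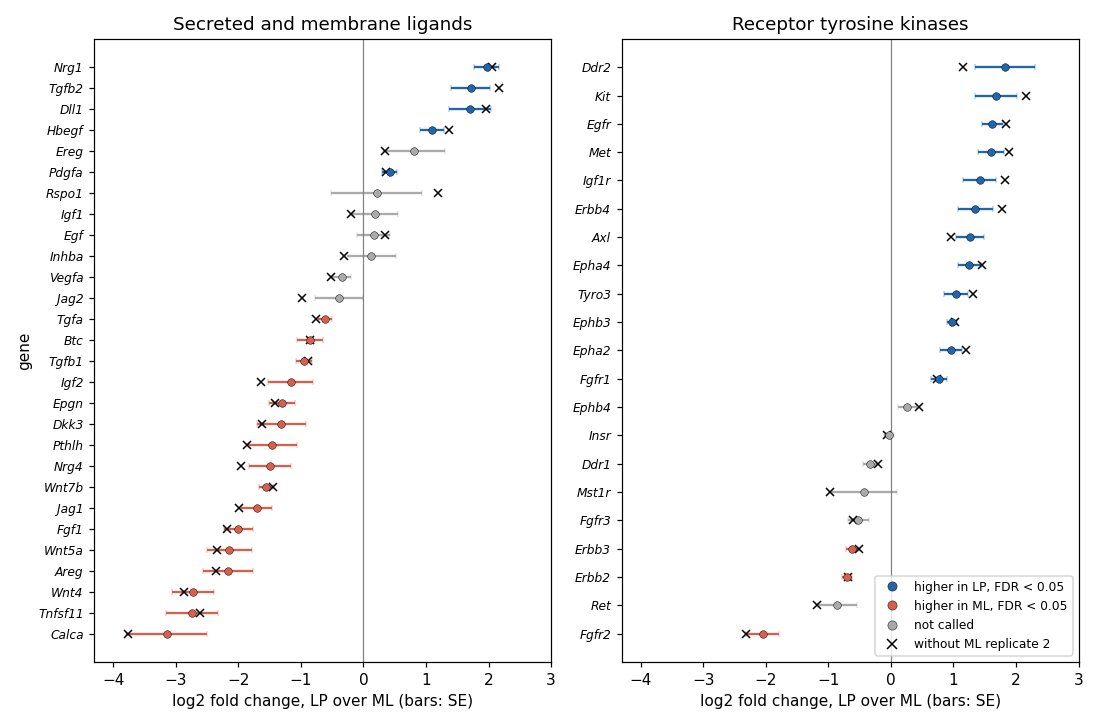
Fitted log2 fold changes (LP over ML) with SE for 28 ligands and 21 receptor tyrosine kinases, ordered by value, with crosses for the values without ML replicate 2. Most ligands lie left of 0, from *Calca* at -3.15, and most receptors right of 0, up to *Ddr2* at 1.82, with *Fgfr2* at -2.05 the lowest receptor.

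Genes of innate defence were higher in LP cells for most called members. Of 33 tested, 18 were higher in LP cells, 16 of them past a log2 fold change of 1, and 5 were higher in ML cells, with a median of 1.00. The shares over all tested genes were 23.8% and 24.3%, and 9.50% past 1 towards LP, so that the ML count is below the background. Without ML replicate 3 the counts were 12 and 4. *Cd14* had 994, 1188 and 737 CPM in LP and 222, 547 and 141 CPM in ML libraries (1.89, SE 0.27, adjusted p = 0.00640), and its partner *Tlr4* had 76.8, 50.5 and 59.4 CPM in LP and 21.5, 24.3 and 20.1 CPM in ML libraries (1.48, SE 0.16, adjusted p = 0.00441). *Tlr2* (1.89) and the flagellin receptor *Tlr5* (1.12) were also higher in LP cells.

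Among effectors, the siderophore-binding lipocalin *Lcn2* had 4524, 6291 and 4358 CPM in LP and 652, 1869 and 581 CPM in ML libraries (2.49, SE 0.29, adjusted p = 0.00456). Complement component *C3* had 2368, 2659 and 1583 CPM in LP and 364, 695 and 137 CPM in ML libraries (2.72, SE 0.33, adjusted p = 0.00490). The lipopolysaccharide-binding protein *Lbp* (2.55), the acute-phase genes *Saa1* (3.49) and *Saa2* (3.42), and *Pigr*, which carries IgA into milk (2.49), were higher in LP cells. *Saa1* and *Saa2* are close copies, so that reads may be shared between them. The protease inhibitor *Wfdc2* went the other way, with 34.5, 72.3 and 115 CPM in LP and 437, 346 and 459 CPM in ML libraries (-2.63, SE 0.36, adjusted p = 0.00563). Chemokines were divided as well. Of 10 tested, 4 were higher in LP and 2 in ML cells, and without ML replicate 3 the counts were 0 and 2. *Cxcl1* (1.52) and *Cxcl16* (1.08) were higher in LP cells, and *Cxcl15* (-2.77) and *Cxcl17* (-2.26) in ML cells.

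Antigen presentation genes were called in 1 direction. Of 13 tested, 8 were higher in ML cells, 4 of them past a log2 fold change of 1, and 0 were higher in LP cells by the edgeR test. At an unadjusted p under 0.05 the LP count was 0, and by limma voom and DESeq2 it was 0 and 0. Over all tested genes 24.3% were higher in ML cells, 8.60% past 1, and 23.8% were higher in LP cells. The list median was -0.61, and the count of 8 was 5 without ML replicate 3. The immunoproteasome subunits *Psmb8* (-1.15, SE 0.13) and *Psmb9* (-1.52, SE 0.16), the peptide transporter *Tap2* (-1.03) and *H2-DMa* (-1.62) were past 1. *Psmb9* had 16.2, 14.7 and 22.5 CPM in LP and 62.9, 37.2 and 54.1 CPM in ML libraries, without overlap.

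Of 37 tested luminal factors, 16 were higher in LP cells, 13 of them past a log2 fold change of 1, and 8 were higher in ML cells, 4 of them past 1. Over all tested genes 23.8% and 24.3% were called in these directions, so that the ML count is close to the background share. Without ML replicate 3 the counts were 9 and 4, and without library batch 4 were higher in ML cells. *Elf5* (chromosome 2, 103412098 to 103450989) had 414, 332 and 388 CPM in LP and 82.8, 128 and 57.5 CPM in ML libraries (2.15, SE 0.28, adjusted p = 0.00532). The ETS factor *Ehf* (1.41), *Foxi1*, known from ion-transporting cells (2.11), *Tfap2c* (1.45), *Cebpb* (1.27), *Cebpd* (1.34), *Bcl11a* (1.53), *Lmo4* (1.15) and *Myc* (1.11) were higher in LP cells. *Sox10*, a neural crest and progenitor factor, had 256, 345 and 168 CPM in LP and 61.8, 170.3 and 40.3 CPM in ML libraries. ML replicate 2 exceeded the lowest LP library, and the adjusted p of 0.00593 (1.71, SE 0.24) was 0.0677 without library batch.

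On the ML side, *Foxa1* had 72.3, 74.0 and 117 CPM in LP and 295, 225 and 372 CPM in ML libraries (-1.77, SE 0.12, adjusted p = 0.00380). *Myb* (-2.03, SE 0.20) and the homeobox gene *Msx2* (-2.31, SE 0.30) were also higher in ML cells, with no overlap between the libraries. *Sox9* had a log2 fold change of -0.21 (adjusted p = 0.147).

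Of 19 tested Notch genes, 11 were higher in LP and 3 in ML cells, with 6 and 2 past a log2 fold change of 1. The shares over all tested genes were 23.8% and 24.3%, and 9.50% and 8.60% past 1, so that the ML count at any fold is below the background. The count of 11 was 4 without ML replicate 3, where the calls over all genes also fell, to 1376 higher in LP and 1422 in ML cells. The target *Hey1* (chromosome 3, 8663359 to 8667038) had 205, 174 and 129.8 CPM in LP and 16.4, 36.1 and 9.18 CPM in ML libraries (3.22, SE 0.34, adjusted p = 0.00434), and *Hey2* had 2.69 (SE 0.34). The target *Hes1* overlapped, with 113, 312 and 322 CPM in LP and 202, 236 and 249 CPM in ML libraries (-0.01, adjusted p = 0.97). Of the receptors, *Notch1* (1.18) and *Notch2* (0.92) were higher in LP cells, whereas *Notch3* had -0.26 (adjusted p = 0.0650). Of the ligands, *Jag1* was higher in ML cells (-1.71) and *Dll1* in LP cells (1.71), both with their highest level in MaSC/basal cells, at 342 ± 137 and 442 ± 94.8 CPM (mean ± SD, n = 3).

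Subunits of 1 sodium channel, ENaC, were called in opposite directions. Of 23 tested ion and water transport genes, 11 were higher in LP and 5 in ML cells (3 without ML replicate 3), with a median of 0.44. The shares over all tested genes were 23.8% and 24.3%, so that the ML count is close to the background. The alpha subunit of ENaC, *Scnn1a*, had 39.5, 56.3 and 81.6 CPM in LP and 227, 211 and 259.7 CPM in ML libraries (-2.03, SE 0.18, adjusted p = 0.00380). Its beta subunit *Scnn1b* had 227, 207 and 177 CPM in LP and 53.7, 98.9 and 40.2 CPM in ML libraries (1.76, SE 0.24, adjusted p = 0.00566), and the gamma subunit *Scnn1g* overlapped (0.26, adjusted p = 0.602). The cotransporter *Slc12a2* (NKCC1) had 477, 739 and 969 CPM in LP and 3933, 2565 and 3756 CPM in ML libraries (-2.26, SE 0.29, adjusted p = 0.00519), and the water channel *Aqp5* was higher in ML cells as well (-1.08). The phosphate transporter *Slc34a2* (3.04), carbonic anhydrase *Car2* (2.47) and the potassium channel *Kcnq1* (2.24) were higher in LP cells.

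Of 23 tested keratins and junction genes of luminal cells, 7 were higher in LP and 6 in ML cells, with a median of 0.08. These counts are close to the shares over all tested genes (23.8% and 24.3%) and are not read as a result about the list. The count of 7 was 4 without library batch and 3 without ML replicate 3. *Krt8* had 3636, 3555 and 4627 CPM in LP and 4485, 4268 and 3622 CPM in ML libraries (-0.07, adjusted p = 0.787), and *Krt18* (0.06, adjusted p = 0.793) overlapped too. *Krt7* (-1.68) and *Krt19* (-0.92) were higher in ML cells. Claudins differed one by one. *Cldn1* had 645, 455 and 476 CPM in LP and 102, 160.0 and 81.9 CPM in ML libraries (2.24, SE 0.26, adjusted p = 0.00454), whereas *Cldn8* (-1.88) and *Cldn10* (-1.76) were higher in ML cells.

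Matrix and adhesion genes, apart from *Itgb3* and *Spp1*, included the integrin *Itgb8* (2.27, SE 0.26), *Itga2* (1.32) and the laminin chain *Lamb3* (1.71), which were higher in LP cells. The laminin chain *Lama5* had 598, 713 and 667 CPM in LP and 3158, 1935 and 1820.4 CPM in ML libraries (-1.76, SE 0.24, adjusted p = 0.00571). Of 26 tested, 10 were higher in LP and 6 in ML cells, against 23.8% and 24.3% of all tested genes. The ML count is close to the background.

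Lipid genes were called in both directions. Of 19 tested fatty acid genes, 10 were higher in LP and 5 in ML cells, and of 14 cholesterol genes, 1 was higher in LP and 5 in ML cells. Over both, 11 were higher in LP cells, 7 in the fit without library batch, and 10 in ML cells, 6 without ML replicate 3. The counts over both are not far above the shares over all tested genes (23.8% and 24.3%). The count of 10 fatty acid genes higher in LP cells is above its share, with 7 past a log2 fold change of 1 against 9.50% of all tested genes. That count of 10 was 9 without ML replicate 2, 7 without ML replicate 3 and 6 without library batch. *Scd1*, a stearoyl-CoA desaturase, had 1146, 2530.2 and 643 CPM in LP and 229, 683 and 193 CPM in ML libraries (1.98, SE 0.16, adjusted p = 0.00380, and 0.0534 without library batch), and ML replicate 2 exceeded LP replicate 3. Its relative *Scd2* had 57.6, 61.8 and 77.2 CPM in LP and 149, 143 and 169 CPM in ML libraries (-1.24, SE 0.08, adjusted p = 0.00380). *Acsl1* (2.18), *Lpin1* (1.52) and acetyl-CoA carboxylase *Acaca* (1.29) were higher in LP cells, and *Dgat2* (-2.03), which completes triglyceride synthesis, in ML cells. *Lpl*, lipoprotein lipase (1.47, adjusted p = 0.0432), was the only member of these lists past 1 that was not called without ML replicate 2 (adjusted p = 0.0703). Of 12 tested retinoid and aldehyde genes, 2 were higher in LP (4 without ML replicate 2) and 4 in ML cells (2 without ML replicate 3). These few calls are near the background shares and are not read as a result about the list. The called genes included *Crabp2* (1.37) towards LP and *Aldh3b1* (-1.64) towards ML cells.

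Of 47 tested cell cycle genes, 6 were higher in LP and 12 in ML cells, against backgrounds of 23.8% and 24.3%, and 1 and 2 were past a log2 fold change of 1. The counts were 1 and 2 without ML replicate 3. The count of 12 was 7 without ML replicate 2, 4 without library batch and 19 with library size alone. *Mki67* was between 30.8 and 41.7 CPM in all 6 libraries (-0.07, adjusted p = 0.603), against 197 ± 39.1 CPM (mean ± SD, n = 3) in MaSC/basal cells. *Top2a* overlapped as well (-0.19, adjusted p = 0.19). The CDK inhibitors *Cdkn2c* (1.07) towards LP and *Cdkn2a* (-2.08) and *Cdkn2b* (-1.09) towards ML cells were the 3 past 1. *Cdkn2a* and *Cdkn2b* stayed at or under 3.34 CPM, overlapped between the populations, and were not called without library batch (adjusted p = 0.0835 and 0.0601).

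Transcripts of other cells and of handling stress were measured in the same libraries. The summed level of 14 basal markers ranged from 565 to 818 CPM in LP and from 509 to 825 CPM in ML libraries, against 23279.5 to 30694.5 CPM in MaSC/basal libraries. Of these 14, *Acta2* (1.08), *Tagln* (0.62), *Oxtr* (1.31) and *Lgr6* (1.73) were higher in LP cells. This count is close to the share of 23.8% over all tested genes and is not read as a result about the list. *Acta2* and *Tagln* were not called without library batch (adjusted p = 0.143 and 0.17). Without ML replicate 2 the counts of the list were 3 in each direction. In ML replicate 3, *Krt5* reached 132 CPM and *Trp63* 23.2 CPM, compared with at most 21.4 and 4.09 CPM in the other luminal libraries, and this was also the library with *Krt71*, *Krt1* and *Krt25*. Of 7 fibroblast markers 1 was higher in each population, and the list summed to 405 to 1632 CPM in LP and 711 to 1330 CPM in ML libraries, and endothelial markers to 9.03 to 29.8 and 9.91 to 40.4 CPM. The defining leukocyte markers *Ptprc* and *Cd3e* were at most 1.10 and 0.970 CPM, *Cd79a* at most 0.397 CPM. The 8 leukocyte markers summed to 15.3 to 21.3 CPM in LP and 7.70 to 11.2 CPM in ML libraries, without overlap, and their part in the innate defence values was not tested. Of the 3 leukocyte markers that passed the filter only *Cd68* was called, higher in LP cells (1.59). Red cell markers summed to 1.46 to 3.89 CPM in LP and 6.20 to 12.1 CPM in ML libraries, muscle markers to at most 4.28 and 8.71 CPM, and adipocyte markers to 3.46 to 6.46 and 1.78 to 2.91 CPM. No list held a marker that was at 0 in all 6 libraries. Of 17 immediate early and heat shock genes, whose sum was 16249 to 36169 CPM in LP and 17008 to 27403 CPM in ML libraries, 4 were higher in LP and 2 in ML cells, with 7 and 2 without ML replicate 2 and 1 and 0 without ML replicate 3. Over all tested genes the shares were 23.8% and 24.3%. The immediate early counts of 4 and 2 are close to the first share and below the second, and are not read as a result about the list. The part of the transcripts of other cells and of handling stress in the differences above was not tested.

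For 571 of the 1362 genes higher in LP cells past a log2 fold change of 1 (41.9%), the MaSC/basal mean lay below the ML mean, and for 392 (28.8%) it lay above the LP mean. Of the 1233 genes higher in ML cells, 683 (55.4%) had a MaSC/basal mean below the LP mean and 258 (20.9%) above the ML mean. *Kit*, *Elf5* and *Lalba* are of the first kind, at 10.3 ± 0.594, 5.07 ± 0.656 and 7.57 ± 3.10 CPM in MaSC/basal cells, as are *Prlr* and *Foxa1* among ML genes, at 20.9 ± 2.26 and 4.74 ± 0.800 CPM (mean ± SD, n = 3). *Nrg1* and *Dll1* were higher still in MaSC/basal than in LP cells. These positions are a description without a test.

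**Figure D5:**
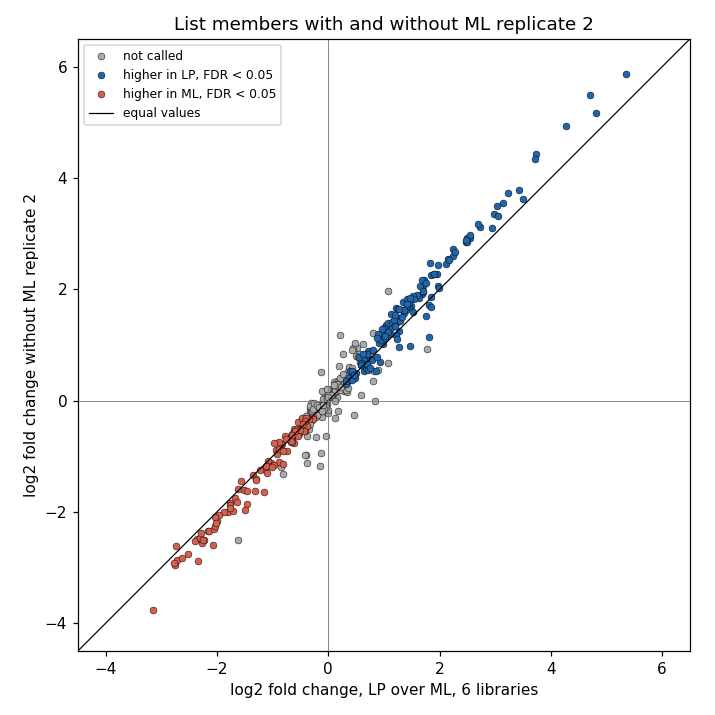
Log2 fold change (LP over ML) of 369 list members from all 6 libraries (horizontal) and without ML replicate 2 (vertical), with blue and red for members called in LP and ML and grey for the rest, and a line of equal values. All 234 called members kept their sign, 216 were still called and 178 were larger in size without ML replicate 2, with the median size moving from 1.25 to 1.42.

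Among the 369 tested members of the 15 lists, 234 were called, and 146 of these were past a log2 fold change of 1. All 234 kept their direction without ML replicate 2. Of the 146, 145 stayed under an adjusted p of 0.05. Of the genes named here, *Acta2*, *Bcl11a*, *Calca*, *Cdkn2a*, *Cdkn2b*, *Cdkn2c*, *Cebpd*, *Cxcl1*, *Cxcl16*, *Ddr2*, *Ehf*, *Erbb4*, *Hbegf*, *Igf1r*, *Kit*, *Krt19*, *Krt71*, *Lmo4*, *Lpl*, *Mfge8*, *Notch1* and *Oxtr* were not under 0.05 without LP replicate 3 (adjusted p = 0.0528 to 0.191) or without ML replicate 3 (0.0513 to 0.185), and *Dll1* and *Thrb* not without LP replicate 3 alone (0.0505 to 0.0528). Without LP replicate 1, the same held for *Cdkn2b*, *Erbb4*, *Kit*, *Krt19*, *Oxtr* and *Tagln* (0.0538 to 0.131). Without ML replicate 1, the same held for *Btc*, *Cdkn2b*, *Krt19*, *Oxtr* and *Tagln* (0.0533 to 0.108). Without LP replicate 2, the same held for *Lpl* and *Tagln* (0.0736 to 0.0808). Without ML replicate 2, the same held for *Lpl* and *Tagln* (0.0594 to 0.0703). Each kept its direction in these fits. The fits without the LP and without the ML library of a batch leave out the same pair and are not separate checks.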

How the data were processed

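Raw read counts per Entrez gene were deposited by the authors as 1 table for each library. Reads (single-end, mouse genome mm10) were aligned with Rsubread and summarised with featureCounts, and the submitters' processing notes also name CASAVA 1.8.0, edgeR 3.6.2 and limma 3.20.5. The deposited gene lengths were used for RPKM. Counts of the 3 LP and 3 ML libraries were filtered to genes over 0.5 CPM in at least 3 libraries, scaled by TMM and fitted with the quasi-likelihood functions glmQLFit and glmQLFTest of edgeR 4.0.16 (R 4.3.3), with population and library batch in the model. The Benjamini-Hochberg adjustment covered 14343 genes. A gene was called at an adjusted p under 0.05, and where stated also at a log2 fold change over 1. SE is the fold change divided by the square root of F.

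Library batch pairs the samples by its label. Deviations from the population means correlated at 0.31, 0.35 and 0.58 in same-batch pairs and between -0.47 and 0.09 in the others. Within a population these deviations cancel out for each gene, so that the contrast between same-batch and other pairs is partly fixed by the calculation. The members and gene lists were chosen with earlier results of these data known. The genes named are sort and cell type markers, list members, and the 10 in each direction with the largest fold change. These 10 were taken among genes with a symbol at adjusted p under 0.05. They also had the same direction in all 3 batch pairs, no overlap between LP and ML libraries and a mean of 5 CPM or more where higher. Simulated counts with 100 genes changed by a log2 fold of 1 and 100 by 2 were recovered at 83% and 99%, with 11 false calls. The simulation changed far fewer genes than were called in the data. Its spread came from the negative binomial dispersion of the fit alone, without the quasi-likelihood dispersion of each gene. Recovery and false calls in the data may therefore differ. DESeq2 1.42.0, voom of limma 3.58.1, other scalings and filters, and each library left out were tried as alternatives. Depth was 19958838 to 75795034 counts, and 3 reads, the lowest level a library could be said to hold, were 0.0372 to 0.154 CPM. Symbols and coordinates were matched by Entrez ID to RefSeq on GRCm38.p6 for 25275 of 27179 genes. Some list members are not reported here.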

Additional observations from a re-analysis of the deposited data

How the results depend on the processing

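Of 157 genes named, 138 were called, and these kept their direction in every alternative run, with 106 called in all of them. The numbers of genes past a log2 fold change of 1 (1362 higher in LP and 1233 in ML cells) lay within 1.5 times of these under other scalings, filters and tests. Leaving out 1 library gave 785 to 1525 genes higher in LP cells and 913 to 1419 higher in ML cells. The LP count was lowest without LP replicate 3 and next without ML replicate 3 (859), which both leave out the batch 3 pair. With the threshold itself tested by glmTreat the LP and ML counts were 285 and 251, and with any fold 3417 and 3481. At an adjusted p under 0.001 with a log2 fold over 2 they were 0 and 0. That last count was also 0 and 0 by limma voom, but 297 and 319 by DESeq2, and 8130 genes had an unadjusted p under 0.05 in the edgeR test, whose smallest adjusted p was 0.0038. Without library batch, the pairing of the main test, 1181 and 1145 genes were called. In that fit 9 paracrine ligands, 4 transcription factors and 4 cell cycle genes were higher in ML cells, and 4 keratin and junction genes, 3 cell cycle genes, 7 lipid genes and 2 basal markers in LP cells, and for immediate early genes the counts were 1 in LP and 0 in ML cells. With library size alone, 6 receptor tyrosine kinases and 19 cell cycle genes were higher in ML and 2 cell cycle genes in LP cells. Without ML replicate 2 or 3 (the latter chosen for the lists, and both for basal markers, after seeing the data) the members higher in LP cells were 4 to 12 for Notch, 1 to 5 for cell cycle, 1 to 7 for immediate early, 3 to 8 for keratins and junctions, 9 to 15 for transcription factors, 2 to 5 for ligands, 5 to 13 for receptors and 2 to 4 for retinoid genes. Those higher in ML cells were 5 to 9 for antigen presentation, 0 to 3 for basal markers, 2 to 7 for cell cycle, 0 to 2 for immediate early, 3 to 5 for ion transport, 6 to 9 for lipid, 4 to 8 for transcription factors, 10 to 18 for ligands and 2 to 4 for retinoid genes. Among genes not called, the sign of the log2 fold change turned with library size alone for *Itgb1* (-0.15), *Ltf* (-0.10), *Gata3* (-0.049) and *Krt18* (-0.15), and without library batch for *Hes1* (0.12, and 0.14 without ML replicate 2 as well). With 1 library left out the log2 fold changes ran from -0.13 to 0.34 for *Ltf*, -0.45 to 0.061 for *Cd36*, -0.12 to 0.051 for *Stat5b*, -0.086 to 0.030 for *Insr*, -0.26 to 0.39 for *Hes1*, -0.17 to 0.83 for *Scnn1g*, -0.30 to 0.045 for *Krt8*, -0.11 to 0.15 for *Krt18*, -0.17 to 0.046 for *Mki67* and -1.40 to 0.87 for *Trp63*. The cause of these changes was not tested. In the shallowest library 0.5 CPM on the TMM scale was 9.76 reads, so that values of low genes there rest on few reads. Recovery by level was not tested.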
